A study of Mus musculus with 2 samples.

Results

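Unnamed probe sets are the part of an expression array that measures transcripts to which an annotation assigns no gene symbol. The members described here were all non-control probe sets with an empty gene symbol in the platform annotation used here, and they were selected on their signal: the mean linear signal of both arrays had to reach 62.3, the median of that mean over all 45037 non-control probe sets. There were 2703 of them, out of 9160 unnamed probe sets and 45101 probe sets in all. The cells were CD4+CD25hi regulatory T (Treg) cells sorted from the spleen at 6 to 8 weeks of age. One RNA pool came from several wild-type mice and the other from several of their miR-125a-deficient (miR-125a KO) littermates, and the loss of miR-125a is the only difference in genotype or treatment that the labels give between them. The labels do not say how many mice each pool held or in which cells miR-125a was deleted. Each pool was read on 1 Affymetrix Mouse Genome 430 2.0 array, so no difference below has a replicate check and no p-value is given. Pairs of signals are written with the wild-type value first.

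Treg cells are CD4 T cells that hold other immune cells in check, and miR-125a is a small RNA that lowers the level of messenger RNAs carrying a match to its seed. This array was designed from messenger RNAs and from expressed sequence tags, which are short reads of cloned transcripts. A probe set that stays without a symbol can lie on a non-coding RNA, on an unprocessed or extended transcript of a known gene, or on a gene whose name is not listed in the annotation used here. An unnamed probe set is thus not evidence of an unknown gene. That annotation lists only probe sets with a gene symbol, so none of the 2703 members could have an accession or a gene ID in it. Members are therefore given by their probe-set identifier and no genome position is printed. Probe sequences were not used here. The sequences that identify the comparison are those of the deleted microRNA, from RefSeq (GRCm38.p6, plus strand, chr17:17830817-17830840 and chr17:17830855-17830876), with the seed, bases 2 to 8, in capitals.
mmu-miR-125a-5p: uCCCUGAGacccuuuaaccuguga
mmu-miR-125a-3p: aCAGGUGAgguucuugggagcc

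The sorted pools carried the Treg markers of their label. Both arrays had the same mean signal after trimming, and their medians were 64.1 and 62.4. All 5 Treg markers checked (Foxp3, Il2ra, Ctla4, Ikzf2 and Tnfrsf18) were past the signal minimum, with summed signals of 54681 and 56448. Foxp3, the transcription factor of the lineage, was at 1631 and 694, a drop past 2-fold. None of the other Treg markers changed by 2-fold. Il2ra was at 15390 and 18551, and Ikzf2 at 1332 and 1821. Ctla4 was at 16623 and 16803, and Tnfrsf18 at 19705 and 18579. Of 4 T cell markers 2 were measured and both passed, Cd3e at 1920 and 1438 and Cd4 at 715 and 641. Neither of the 2 B cell markers measured (Ms4a1 and Cd79a), neither of the 2 neutrophil markers (S100a8 and S100a9) and not the 1 erythroid marker (Hba-a1) reached the minimum. Their summed signals were 37.4 and 35.8 for B cells, 113 and 13.1 for neutrophils and 4.46 and 5.16 for erythroid cells. Of 3 plasma cell markers 1 passed, Igha at 1160 and 376, and the sums were 1236 and 444. Of 3 CD8 T and NK cell markers 2 passed, with sums of 887 and 645. Of 4 markers of macrophages, monocytes and dendritic cells 2 passed, with sums of 271 and 242. Of 3 mast cell and basophil markers 2 passed, with sums of 388 and 304. Both platelet markers passed, with sums of 1728 and 2396. Whether such cells contributed to any unnamed signal was not tested.

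Unnamed probe sets were dim. Of the 9160, 29.5% reached the minimum, against 55.1% of the 34945 probe sets that named 1 gene and 60.9% of the 932 that named several. Among the members the mean signal had a median of 176, ran from 62.3 to 39503 and was between 99.9 and 440 for the middle 50%. Probe sets naming 1 gene and past the same minimum had a median of 505. Of the members, 352 (13.0%) reached a mean signal of 1000, against 32.9% of the probe sets naming 1 gene. The minimum chose these values, so they describe the selection. Just inside it lay 1432669_at at 62.349, 1458089_at at 62.352 and 1455411_at at 62.42. Just outside lay 1444403_at at 62.348, 1456809_at at 62.322 and 1443358_at at 62.30. Of the members, 2425 reached the minimum on both arrays, 185 on the wild-type array alone and 93 on the miR-125a-deficient array alone. The shares on 1 array alone were 6.84% and 3.44%, against 2.55% and 2.17% among probe sets naming 1 gene. A member that passed on 1 array alone had to be higher there.

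A small number of members were among the brightest probe sets of the array. The brightest member was 1449196_a_at, at 38265 and 40741. It was followed by 1437610_x_at at 34379 and 39979, and by 1455168_a_at at 32188 and 35073. The others of the 10 brightest were 1437005_a_at, 1416624_a_at, 1424000_a_at, 1459986_a_at, 1452701_x_at, 1428152_a_at and 1416054_at, with mean signals from 32962 down to 28576. All 10 had ratios slightly above 0, although 1449196_a_at turned to -0.02 with quantile normalization and 1424000_a_at to -0.02 with loess. The largest of these log2 ratios was 0.24, for 1459986_a_at at 27540 and 32601, and the probe-set SD at this signal was 0.18. That SD is the scatter of the log2 ratio between the 2 brightest probe sets of a named gene, the only repeat measurement on these arrays. Genes were grouped by the signal of the brighter of the 2. Both probe sets of a gene were read from the same pools and arrays, so the SD leaves out variation between mice, pools and arrays. Of the 57 members with a mean signal of at least 10000, 0 reached 2-fold and the median log2 ratio was 0.08, against 0.05 for the 491 probe sets naming 1 gene at that level. The suffix of an identifier tells what its probes can match: _at a single transcript, _a_at alternative transcripts of a gene, _s_at transcripts of more than 1 gene, and _x_at probes that may bind unrelated transcripts. Of those 57, 25 (43.9%) ended in _x_at and 16 (28.1%) in _a_at, against 25.7% and 32.6% of the probe sets naming 1 gene at that level. Of all members, 2392 (88.5%) ended in _at alone.

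Members past 2-fold were mostly lower in the miR-125a-deficient pool. The log2 ratio is that of the miR-125a-deficient over the wild-type signal, each plus a pseudocount of 16.3, which understates the change of dim probe sets. On that scale 66 members (2.44%) were at least 2-fold lower and 17 (0.629%) at least 2-fold higher, so 79.5% of the 83 were lower. Among the 19248 probe sets naming 1 gene past the minimum, 1.39% were at least 2-fold lower and 1.04% at least 2-fold higher, and 57.3% of those past 2-fold were lower. Over all 22519 non-control probe sets past the minimum the shares were 1.54% lower and 1.04% higher. With loess scaling of the arrays, 51 members were lower and 20 higher, 71.8% lower, whereas the probe sets naming 1 gene then had 46.2% lower. With the minimum required on both arrays, 36 members (1.48%) were at least 2-fold lower and 9 (0.371%) higher, against 0.960% and 0.627% of probe sets naming 1 gene. The excess of lower members over probe sets naming 1 gene was not seen with the pseudocount at the median signal (0.481% against 0.566%). Nor was it seen with the minimum at the 75th percentile (0.606% against 0.755%) or at 3-fold (0.185% against 0.203%).

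**Figure D1:**
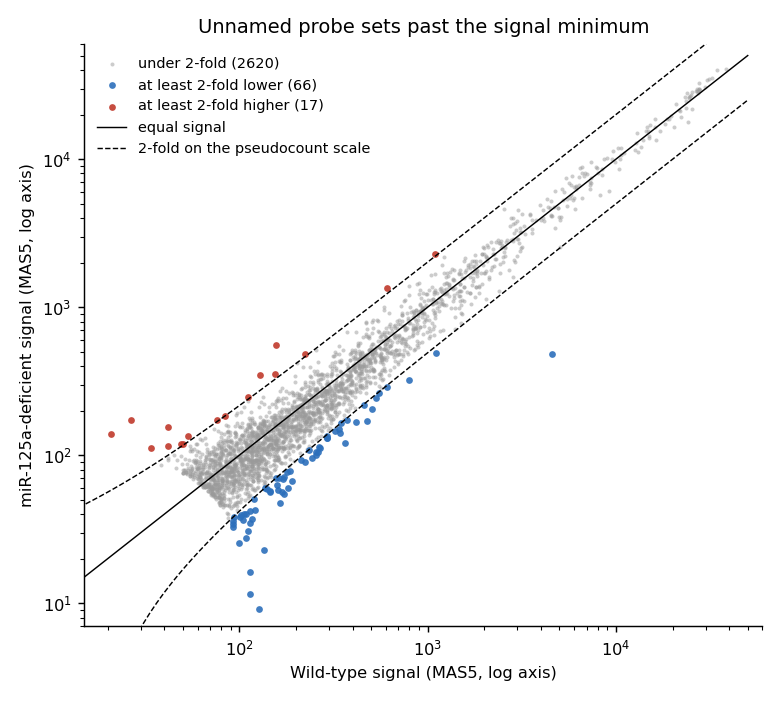
Signal of each of the 2703 unnamed probe sets past the minimum in the wild-type pool (x axis, log scale) and the miR-125a-deficient pool (y axis, log scale); 1 point is 1 probe set on 1 array per genotype. The 66 blue points lie below and the 17 red points above the dashed 2-fold lines, most of them at signals under 500, and 1449254_at lies alone at 4574 and 480.

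The lowest ratio of all 22519 probe sets past the minimum belonged to a member. 1449254_at had signals of 4574 and 480, a log2 ratio of -3.21 or 9.25-fold lower, with a probe-set SD of 0.22. Both signals were well past the minimum, and the ratio lay between -3.25 and -3.09 with the other scalings and pseudocounts. No other member with a mean signal over 1000 was at least 2-fold lower. The annotation used here gives this probe set no gene, so what it measures is not stated.

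The other members with the lowest ratios were dim in the miR-125a-deficient pool. All but 1 of them passed the minimum only through their wild-type signal, so their direction was fixed by the selection. Of all 66 members at least 2-fold lower, 30 had their lower signal under the minimum. 1421742_at was at 127 and 9.06, with a log2 ratio of -2.50. 1441704_at was at 114 and 11.4, with -2.23. These low signals lie under the pseudocount, so the ratios rest on the wild-type value. 1418214_at had 113 and 16.2 (log2 ratio -2.00) and 1457505_at 135 and 23.0 (-1.94). 1434110_x_at had 109 and 27.7 (-1.51), and 1427514_at had 164 and 47.8 (-1.49). 1424727_at, at 366 and 121 with a log2 ratio of -1.48, was the 1 of these 10 besides 1449254_at whose lower signal passed the minimum. 1447086_at had 99.6 and 25.5 (-1.47), and 1439292_at had 111 and 30.8 (-1.44). The probe-set SD applied to these 9 was 0.37, from genes whose brightest probe set had a signal of 67.0 to 259. Among probe sets naming 1 gene with mean signals from 62.3 to 88.9, the log2 ratios had an SD of 0.55.

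Of the 10 highest ratios, 4 had both signals past the minimum. 1448136_at was at 157 and 554, a log2 ratio of 1.72 with a probe-set SD of 0.31. 1415894_at was at 128 and 349, with 1.33 and an SD of 0.37. 1417279_at was at 608 and 1353, with 1.13 and an SD of 0.25, so it was the brightest of the 10. 1457189_at was at 155 and 352, with a log2 ratio of 1.10. The remaining 6 were below the minimum in the wild-type pool and passed it only through their miR-125a-deficient signal, so their direction was fixed by the selection. Of all 17 members at least 2-fold higher, 8 had their lower signal under the minimum. The highest ratio of any member, 2.14, was that of 1455639_at, at 26.6 and 172. It was followed by 1448523_at, at 20.7 and 138, with 2.06. 1459967_at had 42.0 and 155 (1.56), and 1433334_at had 33.9 and 112 (1.35). 1457071_x_at had 41.9 and 115 (1.17), and 1433021_at had 53.3 and 135 (1.12).

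**Figure D2:**
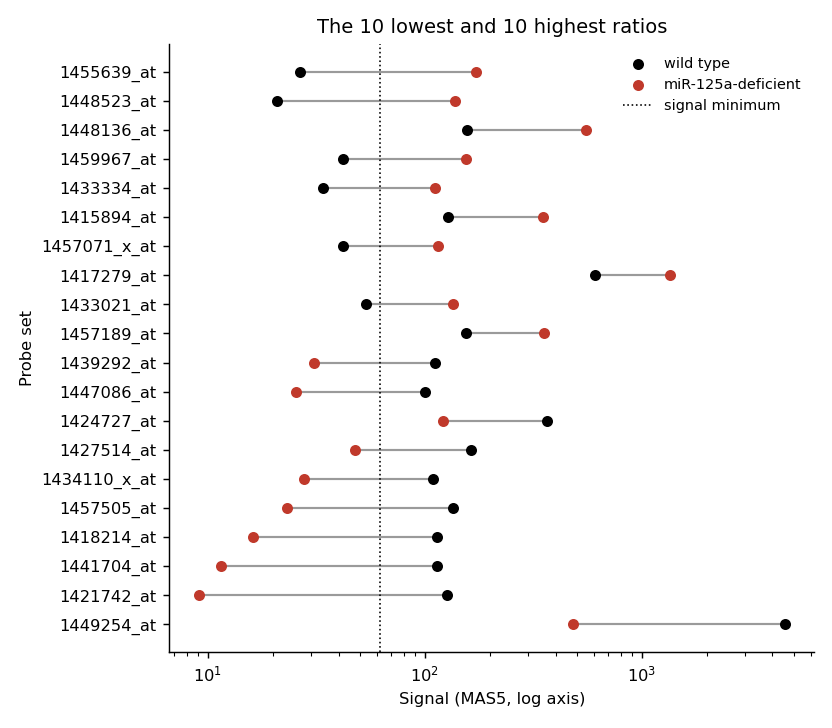
Signals (x axis, log scale) of the 10 highest and 10 lowest log2 ratios among the members, each probe set with its wild-type (black) and miR-125a-deficient (red) value from 1 array; the dotted line is the minimum of 62.3. In 14 of the 20 the lower signal is left of the line, and 1449254_at spans 4574 to 480.

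Few members were bright, and few of those differed by 2-fold. Of the 660 members with a mean signal at or above 449, the 75th percentile of all probe sets, 4 were at least 2-fold lower and 2 higher, or 0.606% and 0.303%, against 0.755% and 0.441% of probe sets naming 1 gene. Besides 1449254_at these were 1427511_at at 792 and 322 (log2 ratio -1.26), 1455090_at at 1103 and 491 (-1.14) and 1459670_at at 612 and 288 (-1.04). The higher ones were 1417279_at, given above, and 1460203_at at 1091 and 2301, with a log2 ratio of 1.07. When both signals had to reach 125, a limit set after the values were seen and 2 times the minimum, 1560 members qualified. Of them, 18 were at least 2-fold lower and 6 at least 2-fold higher, 1.15% and 0.385%. Of the probe sets naming 1 gene at that limit, 0.783% were lower and 0.470% higher. Among the 18 were 1429672_at, at 477 and 169 with a log2 ratio of -1.41, 1446929_at, at 504 and 204 with -1.24, and 1444340_at, at 549 and 262 with -1.02, all named after their values were seen.

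The members as a whole were shifted downward in the miR-125a-deficient pool by a small amount. The median log2 ratio was -0.13, the middle 50% ran from -0.39 to 0.13, and 1703 of the 2703 were below 0, 1000 above. Probe sets naming 1 gene had a median of -0.02 and 52.5% below 0, those naming several genes a median of 0.04 and 44.5% below 0, and all non-control probe sets past the minimum a median of -0.03. The shift is less than the probe-set SD of any single member, so it is a property of many small ratios. The medians of members and of probe sets naming 1 gene differed by -0.11, and by -0.08 with quantile normalization or loess. Below the minimum the 6457 unnamed probe sets had a median of 0.03, as did those naming 1 gene, and the shares past 2-fold were near each other, 7.56% higher and 5.47% lower for the unnamed and 8.22% and 5.85% for those naming 1 gene.

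The downward shift was found among dim and medium members and not among bright ones. When all probe sets past the minimum were divided into 10 equal groups by mean signal, the median of the members was lower than that of probe sets naming 1 gene in the 8 dimmest groups and higher in the 2 brightest. In the 4th group, with mean signals from 194 to 294, the 357 members had a median of -0.20 with 71.7% below 0, and the 1860 probe sets naming 1 gene a median of -0.07 with 58.1% below 0. In the 5th group the medians were -0.19 and -0.04. In the brightest group they were 0.07 over 130 members and 0.05 over 1910. The count past 2-fold differed by direction. Among members between the 50th and the 75th percentile of signal, 3.03% were at least 2-fold lower and 0.734% higher. These shares include members that passed the minimum on 1 array alone. Probe sets naming 1 gene in that band had 2.11% lower and 1.71% higher. In the dimmest group 21 of 526 members (3.99%) were at least 2-fold lower and 5 (0.951%) higher. Of 1689 probe sets naming 1 gene there, 66 (3.91%) were lower and 48 (2.84%) higher. The lower shares in that group were thus near each other. At these signals any probe set past 2-fold had its lower signal under the minimum. It passed only through its higher array, so its direction was fixed by the selection. The share of members at least 2-fold higher was under that of probe sets naming 1 gene in 8 of the 10 groups, and the share at least 2-fold lower in 4 of the 10.

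**Figure D3:**
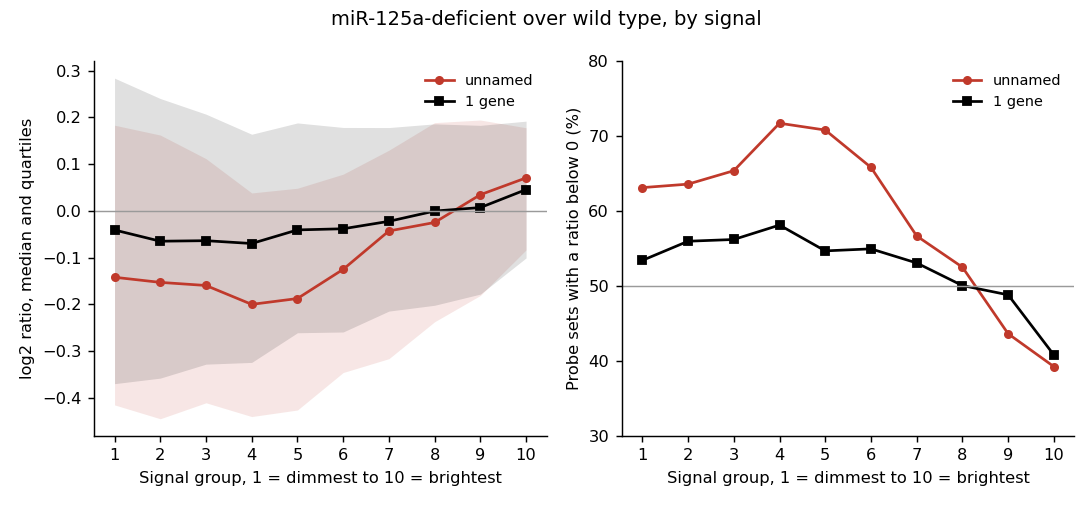
Left, median log2 ratio (lines) and the range of the middle 50% (shading) of unnamed probe sets (red) and of probe sets naming 1 gene (black) in 10 equal groups by mean signal; right, the percent with a ratio below 0. The red median is -0.20 in group 4 and 0.07 in group 10, and the shaded ranges overlap in every group.

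The shift also differed with the type of identifier. The 2392 members ending in _at had a median log2 ratio of -0.15, with 62 at least 2-fold lower and 15 higher (2.59% and 0.627%, against 1.32% and 0.995% of probe sets naming 1 gene with that ending), and a median signal of 163. The 132 ending in _a_at had a median of 0.06 and 0 past 2-fold, and the 63 ending in _s_at a median of 0.08 with 1 lower (1.59%). Of probe sets naming 1 gene, 1.18% of those ending in _a_at and 1.29% of those ending in _s_at were at least 2-fold lower. Both kinds were brighter, with median signals of 1023 and 1097. The 116 ending in _x_at had a median of -0.07, with 3 lower and 2 higher (2.59% and 1.72%), near the 2.74% and 1.88% of probe sets naming 1 gene. Among probe sets naming 1 gene the medians were -0.03 for _at, 0.00 for _a_at and for _s_at, and -0.02 for _x_at.

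Members were concentrated in part of the probe-set numbers, which have no meaning as genome positions. In blocks of 2000 numbers, 6 of 24 blocks held at least 200 members each, namely those from 1440000 to 1447999 and from 1456000 to 1459999. Together they held 1530 members (56.6%), and 46.8% of all their probe sets were unnamed, against 10.7% elsewhere. In these blocks the members had a median log2 ratio of -0.19, and 42 were at least 2-fold lower and 5 higher (2.75% and 0.327%). The 2225 probe sets naming 1 gene in the same blocks had a median of -0.11, with 42 lower and 37 higher (1.89% and 1.66%). In the other blocks the medians were -0.05 over 1173 members and -0.01 over 17023 probe sets naming 1 gene. There 24 members were lower and 12 higher (2.05% and 1.02%), against 226 and 163 probe sets naming 1 gene (1.33% and 0.958%). The median of the members was under that of the probe sets naming 1 gene in all 6 of the blocks with at least 200 members and in 11 of the 18 others. Signal moved with the blocks: the median mean signal of the members was 140 in the 6 blocks and 314 elsewhere, and its part in the difference between blocks was not tested.

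**Figure D4:**
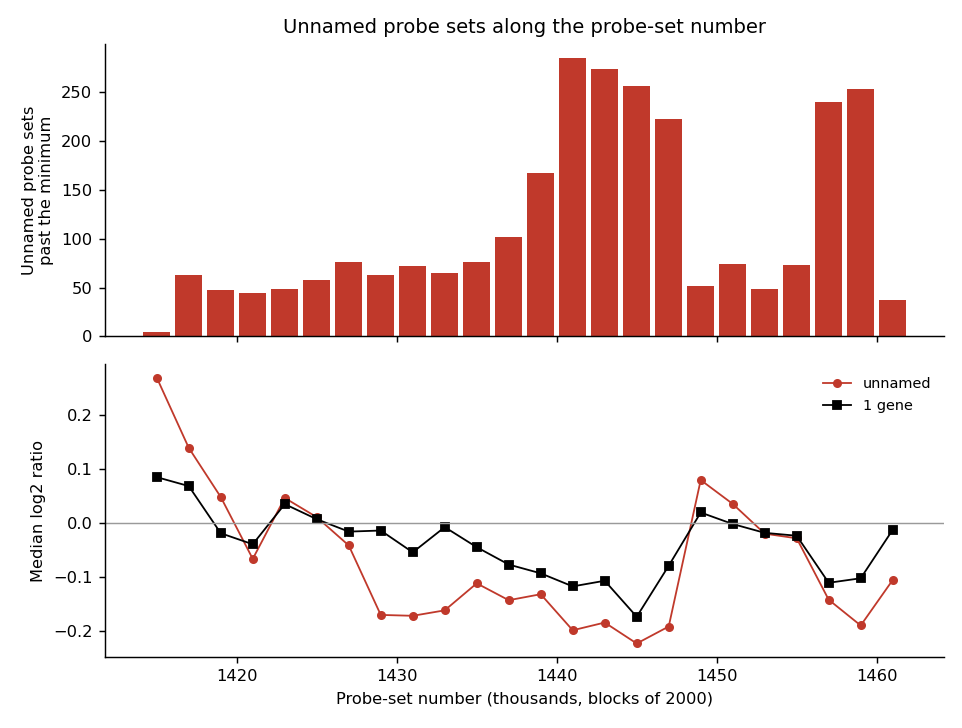
Top, number of unnamed probe sets past the minimum in each block of 2000 probe-set numbers, with bars of at least 200 in 6 blocks; bottom, median log2 ratio of unnamed (red) and 1-gene (black) probe sets in the same blocks. The lowest red median is -0.22 and the lowest black median -0.17, both in the blocks rich in unnamed probe sets.

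Some kinds of named probe set had ratios like those of the members. The probe sets of each gene past the minimum were ordered by mean signal, and a gene's only probe set counts as its brightest. Between the 50th and the 75th percentile of signal, the brightest probe set of a gene had a median log2 ratio of -0.02 (3756 probe sets), the 2nd or 3rd -0.08 (4199) and the 4th or later -0.14 (1088), against -0.16 for the 2043 members. Probe sets of genes that RefSeq types as non-coding RNA had a median of -0.13 (273), those with a clone or gene-model symbol -0.10 (416) and those of protein-coding genes -0.06 (8681). Between the 75th and the 90th percentile the members had -0.08 (436), the 4th or later probe sets -0.11 (256) and the non-coding RNA genes -0.14, the last over only 36 probe sets. Above the 90th percentile the 224 members had a median of 0.06 and the brightest probe sets of a gene 0.03. Ratios below 0 were thus also measured on named probe sets of like signal, and the design allows no test of the difference between members and the 4th or later probe sets. The split past 2-fold in the lowest band was 62 lower and 15 higher for members and 16 and 5 for clone or gene-model symbols. It was 11 and 7 for non-coding RNA genes and 29 and 14 for the 4th or later probe sets. For the brightest ones it was 80 and 79. The share at least 2-fold lower was 3.03% of members, under the 3.85% of clone or gene-model symbols and the 4.03% of non-coding RNA genes. It was 2.67% of the 4th or later probe sets and 2.13% of the brightest ones. Of those past 2-fold, 80.5% were lower among members, 76.2% among clone or gene-model symbols and 61.1% among non-coding RNA genes. Among members in this band, 30 of the 62 lower and 8 of the 15 higher had their lower signal under the minimum. Their direction was fixed by the selection, and how many did so in the other kinds was not counted.

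**Figure D5:**
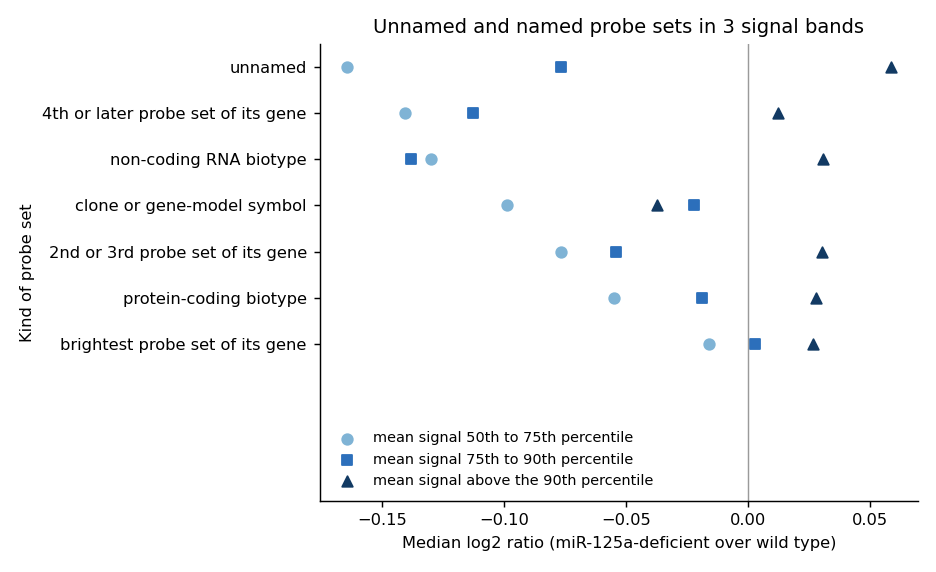
Median log2 ratio (x axis) of unnamed probe sets and of 6 overlapping kinds of probe set naming 1 gene, in 3 bands of mean signal. In the dimmest band the medians run from -0.16 for unnamed probe sets to -0.02 for the brightest probe set of each gene, and above the 90th percentile 6 of the 7 kinds lie above 0, the exception being clone or gene-model symbols at -0.04.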

How the data were processed

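The authors deposited log2 values of 2 Affymetrix arrays, 1 per pooled RNA sample. MAS5, which subtracts mismatch from match signal and scales each array, is named without a version in the submitters' processing notes. Turned back to linear signals, both arrays had a mean of 500.0 after trimming 2% from each end. Detection calls were not used here, and no member lay at the lowest deposited value. The pseudocount of 16.3 is the 25th percentile of all signals. The probe-set SD came from the 5037 genes that 2 or more passing probe sets measured. These genes were put in 10 equal groups by the signal of their brightest probe set. In each group it is the SD of the difference between the log2 ratios of the 2 brightest, divided by the square root of 2. It ran from 0.37 to 0.18. Biotypes came from the RefSeq gene table of GRCm38.p6, which held 19217 of the 19248 probe sets naming 1 gene. Python 3.11.15, numpy 2.4.6 and pandas 2.3.3 were used, and the counting and the loess were tested on simulated data. Counts are by size, since 1 array per genotype allows no test.

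Members named were the 10 highest and 10 lowest ratios, the 10 highest signals and the 3 probe sets on each side of the minimum. A planned naming of members through accessions could give none, since the annotation used here lists only probe sets with a symbol. The members and lists were chosen with earlier results of these data known. Blocks of numbers and kinds of probe set were chosen after the values were seen. Alternatives were 3 other scalings (equal medians, quantile, loess at span 0.3), a pseudocount of 1 or 63.1, 3 other minimums, no _s_at or _x_at probe sets, and folds of 1.5 and 3.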

Additional observations from a re-analysis of the deposited data

How the results depend on the processing

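The count of members past 2-fold depended on the treatment of dim signals. At least 2-fold higher and lower were 28 and 97 members with a pseudocount of 1, 7 and 13 with the median signal as pseudocount, 2 and 4 with the minimum at the 75th percentile, 505 and 419 with no minimum, and 9 and 36 with the minimum on each array. At 1.5-fold they were 95 and 342, and at 3-fold 3 and 5. The percent past the fold, 3.07 in the report's setting, was 4.62, 0.740, 0.909, 10.1, 1.86, 16.2 and 0.296 in these settings in turn. Shares higher and lower follow, members against probe sets naming 1 gene. With a pseudocount of 1 they were 1.04% and 3.59% against 1.48% and 1.94%. With no minimum they were 5.51% and 4.57% against 4.27% and 3.40%. With the minimum on each array they were 0.371% and 1.48% against 0.627% and 0.960%. At 1.5-fold they were 3.51% and 12.7% against 4.73% and 7.15%. The share of members at least 2-fold lower was under that of probe sets naming 1 gene with the median-signal pseudocount (0.481% against 0.566%), the minimum at the 75th percentile (0.606% against 0.755%) and 3-fold (0.185% against 0.203%), and over it in the other settings. The higher shares in these 3 settings were 0.259% against 0.494%, 0.303% against 0.441% and 0.111% against 0.281%. Lower members outnumbered higher ones in every setting run except that with no minimum, where the median log2 ratio of unnamed probe sets was -0.014. Among probe sets naming 1 gene, lower also outnumbered higher, except with quantile normalization, loess, no minimum and at 3-fold. With the minimum at the 75th percentile, 66.7% of members past 2-fold were lower, near the 63.1% of probe sets naming 1 gene. Over the settings that keep the minimum at the median, the median ratio of the members ran from -0.14 to -0.07. With the minimum at the 75th percentile it was -0.03. The difference between the medians of members and of probe sets naming 1 gene was chosen after the data were seen; it ran from -0.12 to -0.01, nearest to 0 with no minimum and at -0.03 with the minimum at the 75th percentile. Of the 10 brightest members, 1449196_a_at and 1424000_a_at had ratios below 0 with quantile normalization (-0.016 and -0.0054), and the latter also with loess. The 20 named extremes kept their sign in the 5 settings of scaling and pseudocount. All 20 stayed past 2-fold in 4 of these, and 13 with the pseudocount at the median signal. No paired analysis was possible because each genotype has 1 array, and for the same reason no replicate could be left out.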
